A study of Mus musculus with 4 samples.

Results

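B cells of preSC allografts were 825 of the 34605 barcodes that passed quality filters in 2 single-cell RNA libraries of mouse tumours: 61 of 16137 in the library labelled preSC_CracdKO and 764 of 18468 in the library labelled preSC_WT. A barcode stands for 1 droplet, usually with 1 cell. A barcode was a member if it held 300 or more detected genes, no more than 15% of its UMIs from mitochondrial genes (a UMI, or unique molecular identifier, stands for 1 captured RNA), at least 1 UMI of Cd79a, at least 1 UMI of Cd79b and Ms4a1 together, and 0 UMIs of Cd3e, Cd3g and Lyz2. Cd79a and Cd79b encode the signalling chains of the B cell receptor and Ms4a1 encodes CD20, whereas Cd3e and Cd3g mark T cells and Lyz2 marks myeloid cells. These 6 genes chose the members, so their levels describe the choice and support nothing.

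preSC is a mouse line of precancerous neuroendocrine cells, and an allograft is a tumour grown from transplanted cells of the same species. The grafted line had the genotype CracdKO in one library and WT in the other, per the labels. Lymphocytes in such a graft are cells of the host, whose genotype, strain, sex and age, like the number of animals per library and the clonality of the knockout line, are absent from the sources used here. The other 2 libraries of the series, CRPR2 and RPR2, were small cell lung cancers that arose in mouse lungs after gene deletion. In this field RPR2 stands for deletion of Rb1, Trp53 and Rbl2, to which CRPR2 adds deletion of Cracd, although the labels spell out neither name. Each group was 1 library, so no difference between groups has a replicate check and no p-value was computed. All intervals are 95% intervals that cover counting error only.

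The libraries held 9215 to 18559 barcodes each, with 42592323 to 110576113 UMIs in all and a median of 2873 to 5996 UMIs per barcode. Members carried a small part of this depth, 152466 UMIs in the library labelled preSC_CracdKO and 1515361 UMIs in preSC_WT.

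Cracd, a regulator of actin capping, is listed as C530008M17Rik, and its RNA went against the label. In barcodes without immune RNA, which hold the tumour cells, it reached 86.1 CPM (UMI counts scaled to the same total in every library) in the library labelled preSC_CracdKO, against 6.35 CPM in the library labelled preSC_WT. The same barcodes held 15.9 CPM in CRPR2, against 29.9 CPM in RPR2. The sources used here do not say where the edit of the line lies, and a 3-prime tag outside it checks nothing. B cells hardly carried the RNA: C530008M17Rik had 1 UMI in members of the library labelled preSC_CracdKO and 3 UMIs in members of preSC_WT. Every direction below therefore runs between the libraries as they are labelled.

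B cells recognise antigen through surface immunoglobulin, pass the signal on through CD79A and CD79B, and present what they take up on MHC class II molecules to helper T cells. Ebf1 and Pax5 commit cells to the B lineage and keep them in it. Naive B cells carry IgM and IgD together, activated ones can switch to IgG, IgA or IgE, and those that become plasma cells secrete antibody with the J chain. In tumours, B cells are known from infiltrates and from lymphoid aggregates at the margin.

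Cd79a, which every member had to carry, lies at chr7:24897381-24902197 in the mouse build mm10, Cd79b at chr11:106311341-106314762 and Ms4a1 at chr19:11249675-11266241. The sequence upstream of the RefSeq start of Cd79a is shown because it is the gene the choice rests on and because its known activator EBF1 is described below among the lineage factors. It covers the 250 bases before the RefSeq start, at chr7:24897247-24897496 on the plus strand of GRCm38.p6, the assembly behind mm10. The gene span given above uses an earlier start, 24897381, so the end of this window lies inside that span. Capitals mark the 2 motif matches that were found:
Cd79a: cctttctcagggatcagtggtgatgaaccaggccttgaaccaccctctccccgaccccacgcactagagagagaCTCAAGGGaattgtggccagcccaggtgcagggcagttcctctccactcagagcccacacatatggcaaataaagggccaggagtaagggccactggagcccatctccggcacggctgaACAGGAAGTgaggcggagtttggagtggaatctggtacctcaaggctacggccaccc
Both strands were searched for 4 motifs. The EBF1 motif CCCNNGAG matched on the minus strand 176 bases before the start, and 20.7% of the 32817 RefSeq promoters of the same length held it. The Ets motif ACAGGAAGT matched 57 bases before the RefSeq start, inside the gene span given above, and 0.795% of promoters held it. The other EBF1 form, CCCNNGGG, was not in this window, was held by 11.8% of promoters, and among 9 B-cell genes with a sequence, of 17 sought, matched at Bank1, Cd22 and Spib. The octamer ATGCAAAT was held by 1.60% of promoters and by none of these 9 genes. A match describes the letters and is not a binding site.

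The 14 B-cell genes that the rule did not use were present in nearly all members. At least 3 of the 14 were detected in 60 of 61 members of the library labelled preSC_CracdKO and in 757 of 764 members of preSC_WT. With each barcode thinned to 500 UMIs, 3 or more were detected in 91.7% of 48 shallow members labelled preSC_CracdKO and in 92.3% of 637 shallow members of preSC_WT. T barcodes and macrophage barcodes thinned in the same way gave 0% in both allografts, and barcodes without immune RNA gave 0.0580% in the library labelled preSC_CracdKO and 0.170% in preSC_WT. These other classes were picked to hold no Cd79a, so their low values were partly set by that choice. The shares in the members themselves went with the name B cell. The share was 76.3% in CRPR2 and 79.2% in RPR2 for B cells picked by the same rule.

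**Figure D1:**
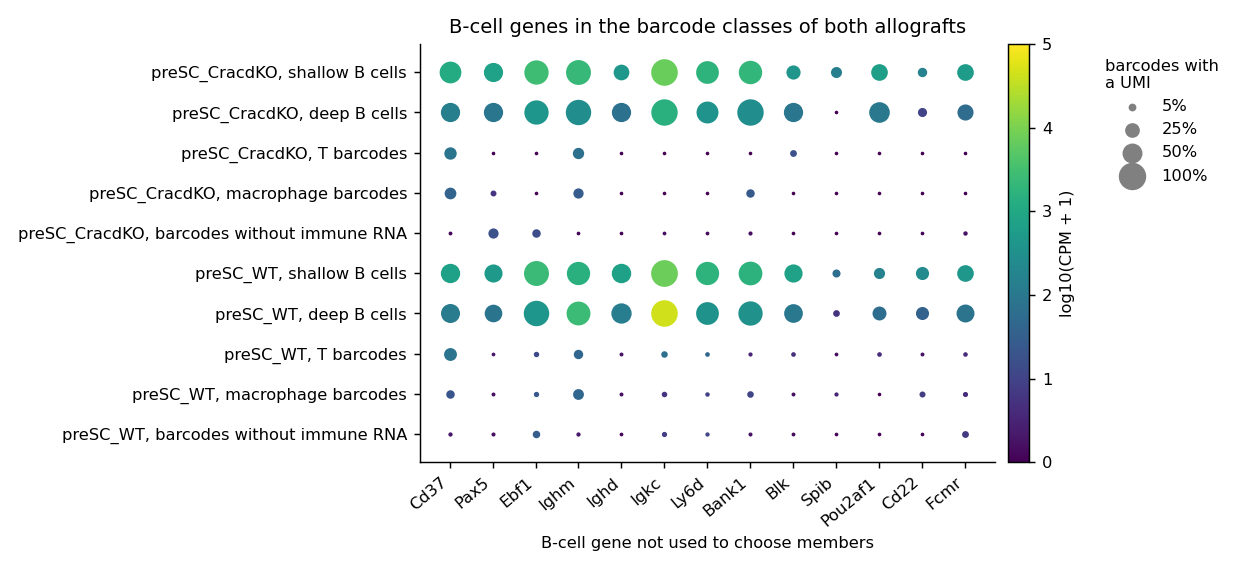
Dot plot of B-cell genes that the rule did not use (horizontal axis) in barcode classes of both allografts (vertical axis). Dot area gives the share of barcodes with a UMI and colour gives log10(CPM + 1). Igkc, Ly6d and Bank1 fill the B cell rows and have small dots elsewhere, whereas Cd37 and Ighm also show in T and macrophage rows.

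Members fell into a large shallow group and a small deep one. The median member held 912 UMIs in the library labelled preSC_CracdKO and 920 UMIs in preSC_WT, whereas the median kept barcode held 6025 UMIs in the first library and 4034.5 UMIs in the second. Members above 3 times the median of their library are called deep here and the others shallow. Deep members were 13 of 61 in the library labelled preSC_CracdKO and 127 of 764 in preSC_WT, and they held 71.2% of member UMIs in the library labelled preSC_CracdKO and 60.1% in preSC_WT. A UMI of at least 1 of 7 tumour markers (neuroendocrine and epithelial genes, among them Chga, Epcam, Krt8, Krt18 and Calca) was found in 84.6% of deep members labelled preSC_CracdKO and in 89.0% of those of preSC_WT. Among shallow members the share was 8.33% in the library labelled preSC_CracdKO and 13.7% in preSC_WT. The doublet caller Scrublet marked 11 of 13 deep and 1 of 48 shallow members labelled preSC_CracdKO, against 57 of 127 deep and 8 of 637 shallow members of preSC_WT. Its automatic call found 0 doublets in the library labelled preSC_CracdKO, where the highest scores were taken instead (2083 barcodes, 12.9%), and 357 barcodes (1.93%) in preSC_WT, so the marks of the libraries come from different rules. Tumour marker RNA summed to 1824 CPM in deep members labelled preSC_CracdKO and to 8024 CPM in deep members of preSC_WT, whereas shallow members held 91.1 CPM in the library labelled preSC_CracdKO and 547 CPM in preSC_WT. Barcodes without immune RNA themselves held less of these markers in the library labelled preSC_CracdKO, with 2029 CPM against 11266 CPM in preSC_WT. Counts over all members are therefore given beside those over shallow members. Whether deep members are 1 cell or several was not tested.

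**Figure D2:**
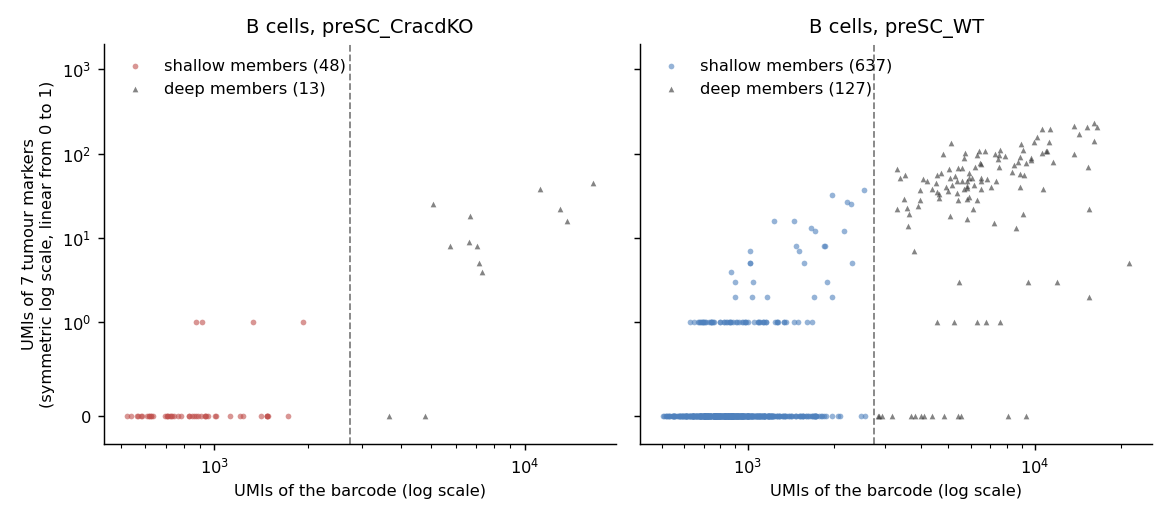
UMIs of each B cell (horizontal axis, log scale) against its UMIs of 7 tumour markers (vertical axis, symmetric log scale). The left panel shows preSC_CracdKO and the right panel preSC_WT, circles are shallow members, triangles are deep members, and the dashed line is 3 times the median. Most of the 13 and 127 deep members lie above 1 tumour marker UMI and most shallow members lie at 0.

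The most abundant RNAs were noncoding, ribosomal and B cell RNAs. In shallow members of preSC_WT the noncoding RNA Malat1 had 15975 CPM, Tmsb4x, an actin-binding thymosin, 12239 CPM, Cd74 12179 CPM and Igkc 7609.6 CPM. Ribosomal protein genes such as Rpl13 (10663 CPM) and Rps24 (9736 CPM) filled most of the other top places. Gm42418, a locus that overlaps ribosomal RNA sequence, led both libraries, with 43259 CPM in the library labelled preSC_CracdKO and 19066 CPM in preSC_WT.

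The edges of the rule differed between the libraries. Just inside it, 13 members labelled preSC_CracdKO and 86 members of preSC_WT had 1 UMI of Cd79a and 1 of Cd79b or Ms4a1. Just outside it, 110 barcodes labelled preSC_CracdKO had Cd79a but neither Cd79b nor Ms4a1, with a median of 6733 UMIs, a tumour marker in 75.5% and Igkc, the kappa light chain, in 31.8%. In preSC_WT 397 such barcodes had a median of 899 UMIs, a tumour marker in 36.8% and Igkc in 82.9%. Cd3e, Cd3g or Lyz2 removed 1 further barcode labelled preSC_CracdKO and 16 of preSC_WT. The smallest barcode in either allograft matrix held 500 UMIs, and 9.84% of members labelled preSC_CracdKO and 4.32% of members of preSC_WT lay below 600. B cells below 500 UMIs are not part of these values. The allografts shared 79 barcode sequences, of which none was a member.

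B cells were rarer in the library labelled preSC_CracdKO. They made up 0.378% of kept barcodes there (exact Clopper-Pearson interval 0.289% to 0.485%), against 4.14% in preSC_WT (3.85% to 4.43%). This is a ratio of 0.0914 (0.0705 to 0.118), or a share 10.9-fold lower. The deficit was shared by other immune cells. Barcodes with a UMI of Ptprc, the pan-leukocyte gene CD45, were 1.10% of kept barcodes in the library labelled preSC_CracdKO and 12.0% in preSC_WT, a ratio of 0.0912 (0.0784 to 0.106). T barcodes were 0.186% against 5.77%, and macrophage barcodes 0.297% against 2.71%. A lower share of B cells and a higher yield of tumour cells cannot be told apart in shares of 1 library.

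Among immune barcodes the B cell share of the 2 libraries was closer. Members with Ptprc were 21 of 177 Ptprc-positive barcodes in the library labelled preSC_CracdKO, or 11.9% (7.50% to 17.6%), against 370 of 2221 in preSC_WT, or 16.7% (15.1% to 18.3%). The ratio was 0.712, and its interval of 0.472 to 1.08 includes 1. Among B, T and macrophage barcodes counted together, B cells were 61 of 139 in the library labelled preSC_CracdKO, or 43.9%, against 764 of 2331 in preSC_WT, or 32.8%, a ratio of 1.34 (1.10 to 1.63). T barcodes made up 21.6% of the same total against 45.7%, and macrophage barcodes 34.5% against 21.5%. So B cells, deep members included, were the most frequent of the 3 classes in the library labelled preSC_CracdKO, and T barcodes were in preSC_WT. In the library labelled preSC_CracdKO the intervals of B cells (35.5% to 52.5%) and macrophage barcodes (26.7% to 43.1%) overlap. Shallow members alone were 48 there, as many as the 48 macrophage barcodes, on which no depth limit was set.

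In the lung tumours the same rule gave 833 of 11962 kept barcodes in CRPR2, or 6.96%, against 420 of 9128 in RPR2, or 4.60%, a ratio of 1.51 (1.35 to 1.70). The preSC_WT share was 0.594 times that of CRPR2 (0.540 to 0.654) and 0.899 times that of RPR2 (0.800 to 1.01). Of Ptprc-positive barcodes, B cells were 16.7% in preSC_WT, 23.3% in CRPR2 and 7.32% in RPR2.

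**Figure D3:**
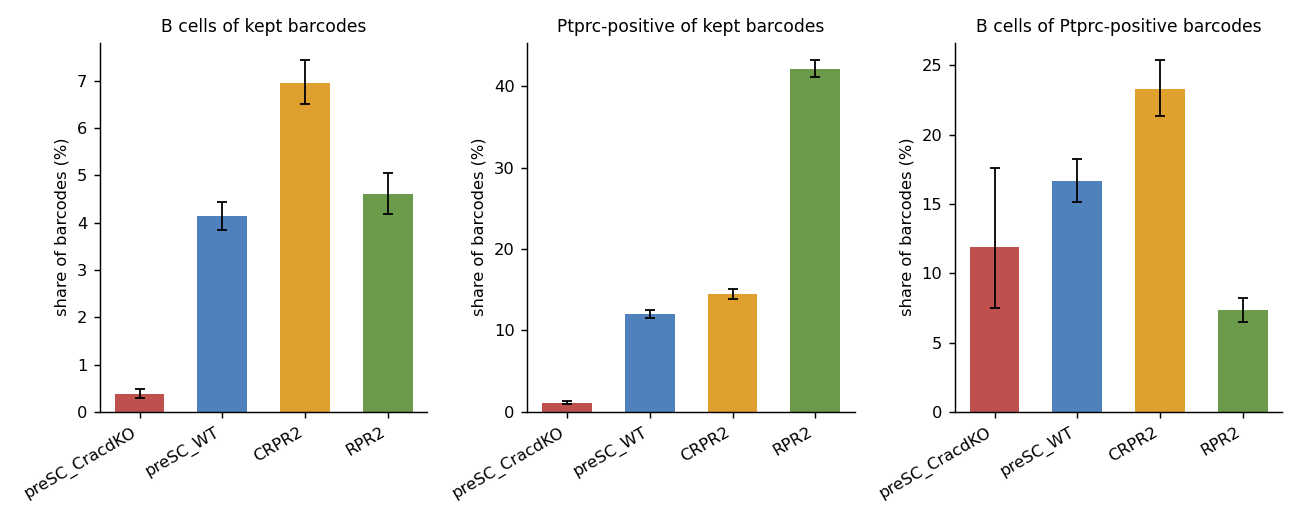
Shares of barcodes in percent for B cells of kept barcodes, Ptprc-positive barcodes of kept barcodes and B cells of Ptprc-positive barcodes (3 panels) in 4 libraries. Error bars are exact 95% Clopper-Pearson intervals. The preSC_CracdKO bar is far below preSC_WT in the first 2 panels, with 0.378% against 4.14% and 1.10% against 12.0%, and the intervals of the pair overlap in the third panel.

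Gene levels were taken from UMIs summed over members of a library. Over all members, 400 genes were at least 2-fold higher in the library labelled preSC_CracdKO, 7.01% of the 5707 genes that reached 20 CPM and 10 UMIs where they were higher, and 1202 genes were at least 2-fold lower, 21.1%. The median log2 ratio of these genes was -0.25, and with ratios centred on it 43.5% of the called genes were higher. In members labelled preSC_CracdKO 1 UMI was worth 6.56 CPM, and in those of preSC_WT 0.660 CPM. The minimum of 10 UMIs thus asked a higher CPM of genes called higher than of genes called lower. The 10 highest ratios belonged to Stmn2, Nrg1, Gm30835, Cdh6, Rtn1, Zfhx4, Myt1l, Tceal3, Tenm3 and Grik2, several of them neuronal. Stmn2, a tubulin regulator of neurons, had 21 UMIs in members labelled preSC_CracdKO and 0 in members of preSC_WT. It was at least 69.6-fold higher with a floor of 3 UMIs over the group, and at least 51.8-fold by the exact interval. In barcodes without immune RNA Stmn2 had 183 CPM in the library labelled preSC_CracdKO and 6.20 CPM in preSC_WT, and shallow members held 1 and 0 UMIs. The 10 lowest ratios belonged to Ighg1, Ighg2c, Wfdc2, Slpi, Pcdh7, Sparc, Col3a1, Lgals7, Iglv1 and Krtap17-1, all at 0 UMIs in members labelled preSC_CracdKO. Wfdc2, a secreted epithelial protein, had 1051 UMIs in members of preSC_WT, and in barcodes without immune RNA 1.88 CPM against 1469 CPM.

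Over shallow members 69 genes were at least 2-fold higher in the library labelled preSC_CracdKO, 1.97% of 3506 genes, and 1393 were at least 2-fold lower, 39.7%. The 48 shallow members of that library held 43921 UMIs, so that 1 UMI was worth 22.8 CPM and most single genes rest on few UMIs. The minimum of 10 UMIs thus asked 228 CPM of a gene to be called higher there. In preSC_WT 1 UMI was worth 1.65 CPM, so a gene called lower needed only the 20 CPM. The median log2 ratio was -0.69 over the 3506 genes tested and -0.20 over 9302 genes that reached 5 CPM on 1 side. With ratios centred on their median, 260 genes were higher and 975 lower, so that 21.1% of called genes were higher. The unlike minimum bears on the counts in both directions, on the median of the 3506 genes and on the centred share. Its part in them was not tested. Single-gene calls are therefore few below, and the account rests on sums over gene lists, each with the levels of its leading genes in shallow members. Counts over lists use a 1.5-fold ratio, which 30.2% of all 9302 genes reached upward and 41.4% downward. A count near or below these shares does not set a list apart. List genes needed 5 CPM on 1 side, less than the 22.8 CPM of 1 UMI in shallow members labelled preSC_CracdKO. A gene at 0 UMIs there thus counted as lower, and the part of this in list counts and medians was not tested.

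The identity genes of B cells were at similar or slightly higher levels in the library labelled preSC_CracdKO. Their 14 genes summed to 20491 CPM against 18619.9 CPM in preSC_WT, a ratio of 1.10 (1.03 to 1.18), with 4 genes 1.5-fold higher and 2 lower. The count of higher genes was near the 30.2% of all genes, and that of lower genes was below the 41.4%. Ebf1 had 2846 CPM in shallow members labelled preSC_CracdKO and 2399 CPM in those of preSC_WT, and Pax5 had 751 and 517 CPM. Cd37, a tetraspanin of B cells, had 1116 against 709 CPM, a ratio of 1.57 (1.15 to 2.12). Bank1, a scaffold downstream of the receptor, had 1935 against 1663 CPM, and Ly6d, a surface protein of early and mature B cells, 1730.4 against 1683 CPM. Blk, a Src family kinase, was on the other side with 410 against 765 CPM, a ratio of 0.535 (0.315 to 0.856).

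Pou2af1 was the identity gene with the highest ratio. It encodes OCA-B, a coactivator of immunoglobulin and germinal centre genes, and had 28 UMIs and 638 CPM in shallow members labelled preSC_CracdKO, against 99 UMIs and 164 CPM in those of preSC_WT. The ratio was 3.90 (2.46 to 5.98). CRPR2 and RPR2 held 124 and 154 CPM.

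Genes of B cell receptor signalling were at 6170 CPM in the library labelled preSC_CracdKO and 6745 CPM in preSC_WT, a ratio of 0.915 (0.806 to 1.03) with a median log2 ratio of 0.03, and 2 of 24 were 1.5-fold higher and 6 lower. The kinases Lyn (706 against 628 CPM), Syk (501 against 377 CPM) and Prkcb (592 against 600 CPM) had like levels. Ptprc, whose phosphatase activates Src kinases, had 410 against 742 CPM. Vav1, a guanine nucleotide exchange factor, had 159 against 57.9 CPM on 7 and 35 UMIs.

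Lineage factors summed to 14617 CPM in the library labelled preSC_CracdKO and 13121 CPM in preSC_WT, a ratio of 1.11 (1.03 to 1.21), and 7 of 23 were 1.5-fold higher and 3 lower. Here too the higher count was near the 30.2% of all genes and the lower count below the 41.4%. Ets1, which restrains plasma cell formation, had 1230 against 584 CPM, a ratio of 2.11 (1.55 to 2.81). Foxp1, needed for B cell development, had 2277 against 1415 CPM, a ratio of 1.61 (1.29 to 1.98). Bach2, a repressor that keeps B cells from becoming plasma cells, had 1230 against 1347 CPM. Klf2, a factor of resting and recirculating lymphocytes, was the largest exception with 478 against 1504 CPM, a ratio of 0.318 (0.196 to 0.489).

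Among the 23 lists of B cell biology, the ratio of sums furthest below 1 in shallow members was that of activation and immediate early genes, which respond within minutes to receptor signals and to handling. They summed to 2277 CPM in shallow members labelled preSC_CracdKO and 8902 CPM in those of preSC_WT, a ratio of 0.256 (0.208 to 0.312), and all 20 were at least 1.5-fold lower. Jund had 546 against 2124 CPM, Junb 91.1 against 934 CPM, and Fos 45.5 against 575 CPM, subunits of the AP-1 transcription factor. Nr4a1, an orphan receptor induced by antigen receptor signals, had 45.5 against 365 CPM on 2 and 221 UMIs. Cd69, which keeps activated lymphocytes in tissue, differed least with 228 against 377 CPM, a ratio of 0.604 (0.286 to 1.13).

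The same genes were low in every other class of that library. T barcodes summed to 1629 CPM in the library labelled preSC_CracdKO and 9838 CPM in preSC_WT, a ratio of 0.166 (0.135 to 0.201). Macrophage barcodes gave 2203 against 12687 CPM, a ratio of 0.174 (0.158 to 0.190), and barcodes without immune RNA 1011 against 16379 CPM, a ratio of 0.0617. A property of the B cells and one of the whole library cannot be told apart here.

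Antigen presentation was lower in the library labelled preSC_CracdKO. MHC class II genes summed to 18009.6 CPM against 25915 CPM, a ratio of 0.695 (0.646 to 0.746), and 0 of 12 were 1.5-fold higher and 4 lower. The count of lower genes was not above the 41.4% of all genes, so the direction rests on the sum. Cd74, the invariant chain, had 8538 CPM in shallow members labelled preSC_CracdKO and 12179 CPM in those of preSC_WT. The class II chains H2-Aa (2527 against 3791 CPM), H2-Ab1 (2755 against 3909.8 CPM) and H2-Eb1 (2391 against 3713 CPM) had ratios of 0.667, 0.705 and 0.644. MHC class I genes summed to 2596 against 5791 CPM, a ratio of 0.448 (0.369 to 0.540), and 14 of 15 were 1.5-fold lower and 1 higher. H2-D1 had 455 against 1370.5 CPM, H2-K1 638 against 1187 CPM and B2m, the shared light chain of class I, 592 against 1091 CPM. Class I was also lower in T barcodes (3681 against 5707 CPM), macrophage barcodes (1514 against 4378 CPM) and barcodes without immune RNA (253 against 1397 CPM) of that library. Macrophage barcodes had 5025 CPM of class II genes there, against 15318 CPM in preSC_WT.

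Costimulation genes summed to 1321 CPM in shallow members labelled preSC_CracdKO and 2460.0 CPM in those of preSC_WT, a ratio of 0.537 (0.406 to 0.698), and 6 of 9 were 1.5-fold lower and 1 higher. Cd83, which stabilises class II on activated cells, had 501 against 1246 CPM, a ratio of 0.402 (0.250 to 0.613), and Cd86, a ligand of CD28, had 114 against 293 CPM. Cd274, the checkpoint ligand PD-L1, had 273 against 245 CPM.

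Homing receptors were uneven, so that the sum and the median of the list differ in sign. They summed to 2664 CPM against 3834 CPM, a ratio of 0.695 (0.572 to 0.837), with a median log2 ratio of 0.20 over 14 genes, and 5 were 1.5-fold higher and 4 lower. Ccr7, a receptor for chemokines of T cell zones, had 91.1 CPM in shallow members labelled preSC_CracdKO, against 311 CPM in those of preSC_WT, and Gpr183, which guides activated B cells to the follicle border, 296 against 759 CPM. Cxcr5, which guides B cells into follicles, had 137 against 145 CPM.

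Genes of follicular B cells summed to 3256 against 4688 CPM, a ratio of 0.694 (0.583 to 0.822), with Fcer2a (CD23) at 137 against 365 CPM, Cr2 (CD21) at 159 against 250 CPM and Cd55 at 569 against 496 CPM. Genes of marginal zone B cells gave a ratio of 0.738 (0.536 to 0.992) and memory and atypical B cell genes one of 1.34 (0.977 to 1.81). Stress and heat shock genes gave 5578 against 12044 CPM, a ratio of 0.463 (0.406 to 0.526), with 1 of 15 genes 1.5-fold higher and 10 lower, and barcodes without immune RNA gave 0.887. Actin genes gave 9130.0 against 11257 CPM, a ratio of 0.811 (0.732 to 0.897). Actb itself had 5373 against 4983 CPM, whereas Cfl1, the actin-severing cofilin, had 137 against 708 CPM, a ratio of 0.193 (0.0705 to 0.424).

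Over all members, deep ones included, the lists gave other ratios. The ratio was 0.140 for activation and immediate early genes, 0.413 for MHC class I, 0.554 for MHC class II, 0.446 for costimulation and 0.738 for receptor signalling. It was 0.755 for stress genes, nearer to 1 than the 0.463 of shallow members. Other lists lay on the other side of 1 than in shallow members. Over all members the ratio was 0.914 for lineage factors, 0.276 for B1 genes, 0.754 for precursor genes, 0.201 for heavy constant chains and 0.232 for identity genes, a list that holds Igkc, whose RNA lay mostly in a few members of preSC_WT. It was 1.79 (1.43 to 2.22) for germinal centre genes and 1.35 (1.24 to 1.46) for cell cycle genes. Of 15 cell cycle genes tested at 2-fold, 3 were higher and 1 lower, where 7.01% of all genes were higher and 21.1% lower. Shallow members labelled preSC_CracdKO held 6 of the 101 germinal centre UMIs and 29 of the 714 cell cycle UMIs of that library. These 2 ratios therefore rest mostly on its deep members, whose B cell origin was not tested.

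For several lists the interval of the sum included 1. The ratio was 0.985 (0.803 to 1.20) for type I interferon genes, 0.972 (0.704 to 1.31) for cytokines, 0.926 (0.715 to 1.18) for BAFF and TNF receptors, 0.872 (0.573 to 1.28) for innate receptors and 1.14 (0.740 to 1.69) for precursor genes. Their medians lay at log2 -1.85, -3.65, -0.46, -0.23 and -0.28. The cytokine Ltb, a lymphotoxin subunit, had 706 against 683 CPM. Ccl4, a chemokine, had 0 UMIs in shallow members labelled preSC_CracdKO and 89 in those of preSC_WT, at least 2.15-fold lower. Cell cycle genes gave 0.668 (0.443 to 0.969), with 9 of 16 genes 1.5-fold lower and 5 higher in shallow members, the direction opposite to that over all members. Survival genes gave 0.741 (0.530 to 1.01), B1 genes 1.02 (0.364 to 2.32), germinal centre genes 0.689 (0.248 to 1.54) and plasma cell genes 0.698 (0.452 to 1.03).

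**Figure D4:**
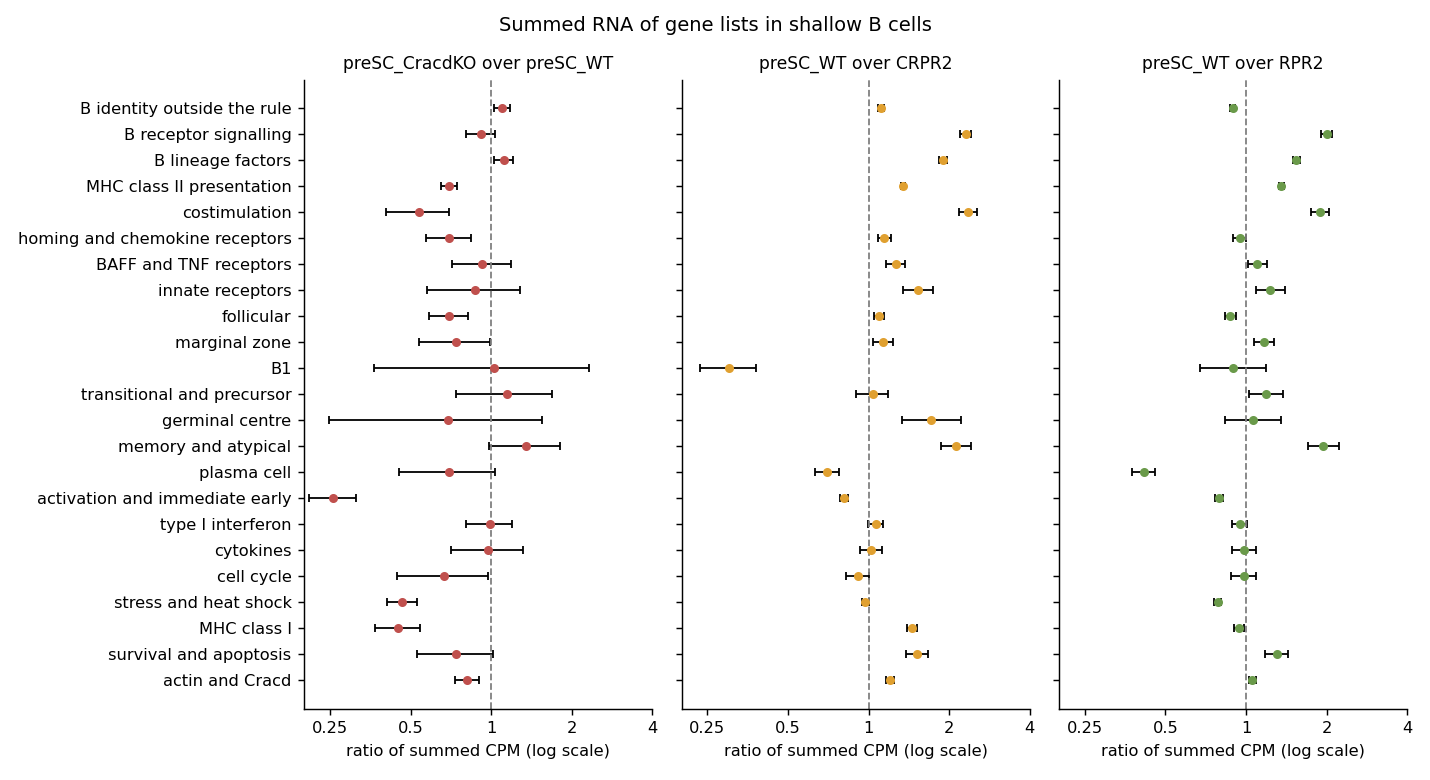
Ratio of the summed CPM of 23 gene lists in shallow B cells for preSC_CracdKO over preSC_WT, preSC_WT over CRPR2 and preSC_WT over RPR2 (3 panels, log axis). Points are ratios and bars exact conditional 95% intervals. In the first panel activation and immediate early genes lie lowest at 0.256, and in the others B receptor signalling lies at 2.30 and 2.00.

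Of the other genes that differed between shallow members of the allografts, haemoglobin led. Hbb-bs had 31 UMIs and 706 CPM in the library labelled preSC_CracdKO, against 7 UMIs and 11.6 CPM in preSC_WT, and Hba-a1 had 13 against 2 UMIs. Over all members the order was the other way, with 249 against 2414 CPM of Hbb-bs, and in barcodes without immune RNA it had 234 against 208 CPM. Ccnd3, the D-type cyclin of lymphocytes, had 638 against 116 CPM, a ratio of 5.51 (3.42 to 8.65), and in T barcodes 440 against 158 CPM. Cdk8, a kinase of the Mediator complex, had 1321 against 354 CPM, and 1303 against 242 CPM in T barcodes. It was also higher in macrophage barcodes, with 586 against 161 CPM, and in barcodes without immune RNA, with 541 against 219 CPM. Gm16341, Pgk1, Spata5, Susd1 and St6galnac3, with Pou2af1, completed the 10 highest ratios. The 10 lowest, each at 0 UMIs in the library labelled preSC_CracdKO, were Ccl4, Pdcd10, Ctcf, Cdk11b, Gramd3, Ewsr1, Lrmp, Ube2k, Ptp4a1 and Cbx1. Of the 69 genes called higher, 40 were tested in T barcodes and 13, or 32.5%, were called higher there, against 2.89% of all genes tested in both. Of the 1393 called lower, 900 were tested and 419, or 46.6%, were called lower, against 36.0%. The minimum of 10 UMIs was unlike in T barcodes too, where 1 UMI was 16.3 CPM in the library labelled preSC_CracdKO and 0.371 CPM in preSC_WT.

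Markers of other cells were low in shallow members, apart from erythroid ones in the library labelled preSC_CracdKO. T cell markers summed to 22.8 CPM in the library labelled preSC_CracdKO and 61.2 CPM in preSC_WT, with Cd4 and Cd8a at 0 UMIs in both. Macrophage markers summed to 22.8 against 16.5 CPM, with Csf1r and Adgre1 at 0 in both. Neutrophil markers were at 0 in both. Natural killer cell markers had 0 against 3 UMIs, dendritic cell markers 0 against 9 UMIs and fibroblast markers 0 against 5 UMIs. Of the endothelial markers Cdh5 and Kdr were at 0 in both, and Pecam1, which B cells also express, had 114 against 231 CPM. Plasmacytoid dendritic cell markers, of which B cells share some, summed to 22.8 against 77.7 CPM. Erythroid markers summed to 1002 against 14.9 CPM, and their part in the ratios was not tested.

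Immunoglobulin chains showed B cells that had mostly not switched class. Ighm, the IgM heavy chain, was detected in 50 of 61 members labelled preSC_CracdKO, or 82.0% (70.0% to 90.6%), against 540 of 764 members of preSC_WT, or 70.7% (67.3% to 73.9%). Ighd, the IgD heavy chain, was detected in 32.8% (21.3% to 46.0%) against 47.9% (44.3% to 51.5%). At least 1 of the 2 was found in 85.2% against 83.5%. In shallow members Ighm had 2231 against 1478 CPM, a ratio of 1.51 (1.21 to 1.86), and Ighd 433 against 717 CPM, a ratio of 0.603 (0.359 to 0.953). Barcodes without immune RNA had Ighm in 0.0516% of the library labelled preSC_CracdKO and 0.422% of preSC_WT, far below the members. Thinned to 500 UMIs, shallow members had Ighd in 18.8% (8.95% to 32.6%) against 31.7% (28.1% to 35.5%), so the intervals overlap.

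A switched constant chain (any of Ighg1, Ighg2b, Ighg2c, Ighg3, Ighe and Igha) was found in 1 of 61 members labelled preSC_CracdKO, or 1.64% (0.0415% to 8.80%), and in 23 of 764 members of preSC_WT, or 3.01% (1.92% to 4.48%). In CRPR2 it was found in 28.9% of 833 and in RPR2 in 25.5% of 420 B cells. Among shallow members the counts were 0 of 48, which allows up to 7.40%, and 10 of 637, or 1.57% (0.755% to 2.87%), against 19.3% (16.4% to 22.5%) in CRPR2 and 17.7% (13.9% to 22.1%) in RPR2. The lung libraries also held such RNA outside B cells, in 15.4% of barcodes without immune RNA of CRPR2 and 12.8% of those of RPR2, against 0% in the library labelled preSC_CracdKO and 0.231% in preSC_WT. Thinned to 500 UMIs, shallow B cells had a switched chain in 0.942% (0.346% to 2.04%) in preSC_WT, 9.05% (6.98% to 11.5%) in CRPR2 and 8.59% (5.91% to 12.0%) in RPR2. T barcodes thinned in the same way gave 0.0938%, 3.69% and 2.42%. The share was therefore lower in preSC_WT at equal depth, while other cells of both lung libraries also carried more of this RNA.

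A few members held most antibody RNA in preSC_WT. In preSC_WT 43605 UMIs of Igkc were spread over 724 members, and the 5 members with the most held 64.3% of them. Ighg1 had 1765 UMIs in 4 members, Ighg2c 1221 UMIs in 3 members and Igha 1619 UMIs in 9 members. Jchain, the joining chain of secreted IgM and IgA, had 1760 UMIs in 12 members, and the 10 members with at least 5 of them were all deep. In the library labelled preSC_CracdKO Jchain had 20 UMIs, Igha 11 and Ighg2b 4, each in 1 member. Shallow members held 0 UMIs of Jchain in the library labelled preSC_CracdKO, 2 in preSC_WT, 680 in CRPR2 and 1082 in RPR2.

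Light chains were mainly kappa. Igkc was found in 93.4% of members labelled preSC_CracdKO and 94.8% of members of preSC_WT, and a lambda constant chain (Iglc1 to Iglc4) in 57.4% (44.1% to 70.0%) and 76.2% (73.0% to 79.2%). Neither was found in 1 member labelled preSC_CracdKO and 4 members of preSC_WT. Because most B cells express 1 light chain type, the balance was taken in shallow members with at least 10 light chain UMIs. Kappa made up 90% or more in 4 of 17 members labelled preSC_CracdKO and 90 of 274 members of preSC_WT, lambda in 1 of 17 and 13 of 274, and neither in 12 of 17 and 171 of 274. Iglc1 to Iglc4 are related genes, and reads can be split or misplaced where copies are alike, so the levels of single lambda genes are uncertain. Why most of these members held neither type at 90% was not tested.

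**Figure D5:**
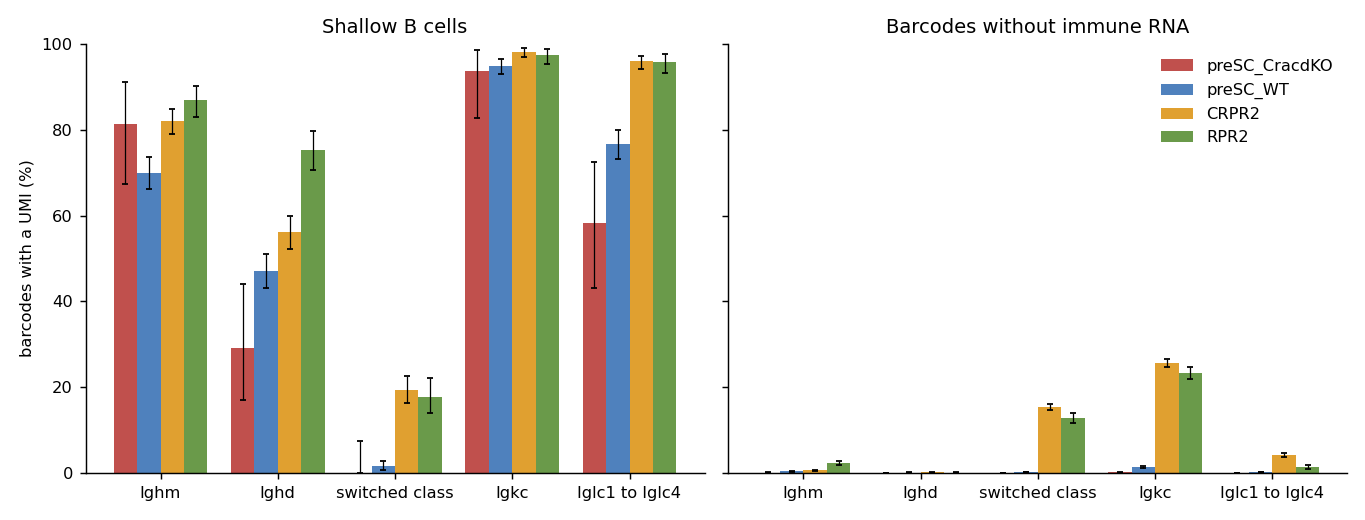
Share of barcodes in percent with a UMI of Ighm, Ighd, a switched heavy chain, Igkc or Iglc1 to Iglc4 in shallow B cells (left) and in barcodes without immune RNA (right) of 4 libraries. Error bars are exact 95% Clopper-Pearson intervals. Switched chains are at 0% in preSC_CracdKO and 1.57% in preSC_WT but at 19.3% in CRPR2 and 17.7% in RPR2, where barcodes without immune RNA also carry them.

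Variable genes were varied, as far as the sparse counts show. In preSC_WT, 41 of 185 heavy chain variable genes were seen in 80 of 764 members, and the most frequent, Ighv2-2, was in 5 of them. Of 160 kappa variable genes 44 were seen in 91 members, led by Igkv1-110 in 9. In the library labelled preSC_CracdKO 4 heavy chain variable genes were seen in 5 members and 7 kappa variable genes in 8 members. These 3-prime reads rarely reach a variable gene, so clones were not counted.

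Signs of division and early development were rare. In shallow members Mki67, a proliferation marker, had 0 UMIs in the library labelled preSC_CracdKO and 2 in preSC_WT, and Top2a had 0 and 14. Rag1, Rag2, Dntt, Vpreb1 and Igll1, genes of B cell precursors, were at 0 UMIs in both. With a floor of 3 UMIs rather than an exact interval, a count of 0 in the 48 cells labelled preSC_CracdKO allows up to 68.3 CPM of a gene such as Mki67. In the 637 cells of preSC_WT it allows up to 4.96 CPM of a gene such as Rag1. Vpreb3, which stays on in mature B cells, had 455 against 283 CPM. Cd5, a marker of B1 cells, and Il10, a cytokine of regulatory B cells, had 0 UMIs in the library labelled preSC_CracdKO and 1 each in preSC_WT.

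Set against B cells of the lung tumours, those of preSC_WT had more RNA of receptor signalling and of lineage factors and less Jchain and Igha RNA. Over all B cells 2590 genes were at least 2-fold higher in preSC_WT than in CRPR2, 36.1% of 7181, and 214 were lower, 2.98%. Against RPR2 2656 genes were higher, 37.1% of 7155, and 175 lower, 2.45%. Over shallow B cells 1363 genes were higher than in CRPR2, 23.2% of 5879, and 389 lower, 6.62%, whereas 1350 were higher than in RPR2, 23.5% of 5747, and 255 lower, 4.44%. The median log2 ratio over all B cells was 0.71 against CRPR2 and 0.70 against RPR2, and centring on it left 64.8% and 66.4% of the called genes higher. In shallow B cells the medians were 0.26 and 0.31, and centring left 1024 genes higher and 564 lower than in CRPR2, 64.5% of them higher, and 972 higher and 490 lower than in RPR2, 66.5%. Both comparisons share preSC_WT. The median shallow B cell held 869 UMIs in preSC_WT, 1427 in CRPR2 and 2320 in RPR2. The allograft matrices were written by Cell Ranger 5.0.0 and the lung matrices by 6.1.2 with other feature lists, and comparisons used the 30406 shared identifiers. The part of these 2 versions and of the tumour site in the differences cannot be told apart.

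Many of these differences were also seen in other cells of the same libraries. Of the 1363 genes higher than in CRPR2, 1129 were tested in T barcodes, and 764 of them, 67.7%, were also higher there, against 19.5% of all genes tested in both. Of the 1350 genes higher than in RPR2, 644 of 1142, or 56.4%, were also higher in T barcodes, against 18.0%. Of the 389 genes lower than in CRPR2, 98 of 359, or 27.3%, were lower in T barcodes, against 2.63% of all genes tested in both. Of the 255 lower than in RPR2, 96 of 221, or 43.4%, were lower there, against 5.62%. Among the leading ratios, Cmss1 and Gphn were of this kind. Cmss1, a ribosome assembly factor, had 2217 CPM in shallow B cells of preSC_WT, 18.6 CPM in CRPR2 and 6.47 CPM in RPR2, and in T barcodes 1224, 16.1 and 23.5 CPM. Gphn, which encodes gephyrin, had 1321, 11.5 and 10.8 CPM in shallow B cells, and in T barcodes 870, 14.5 and 13.1 CPM. Cacna1e, a calcium channel gene, could not be placed in this way. It had 160 CPM in shallow B cells of preSC_WT, 12.4 in CRPR2 and 0 in RPR2. T barcodes held 2.60, 1.15 and 4.55 CPM of it, too little to show whether the difference was shared. Other leading genes were also scarce in T barcodes of preSC_WT. Gm47782, Gm10552 and Mreg had 119, 67.8 and 67.8 CPM in shallow B cells of that library and 0.742, 2.23 and 6.68 CPM in its T barcodes.

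The named extremes of the shallow comparisons were as follows. Higher than in CRPR2 were, beside Cmss1 and Gphn, Gm37240, Gm36198, Gm44686, Raet1e, Gm10552, Mreg, Gm47782 and Cfap43. Higher than in RPR2 were, beside Cmss1, Gphn and Cacna1e, Gm37240, Gm36198, Gm44686, Cfap43, Ddx3y, Uty and Eif2s3y, the last 3 being Y-linked. Lower than in CRPR2 were Scgb1a1, Scgb3a2, Rnasek, Jchain, Hp, Igha, Mgp, Spp1, Hbb-bs and Cxcl13. Lower than in RPR2 were Scgb1a1, Xist, Ighg2c, Jchain, Rnasek, Slpi, Igha, 4930597A21Rik, Scgb3a2 and Hp. Rnasek, a ribonuclease gene, had 0 UMIs in shallow B cells of preSC_WT, 295 in those of CRPR2 and 202 in those of RPR2, and 1.97 CPM in barcodes without immune RNA of preSC_WT against 391 CPM in those of RPR2.

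Receptor signalling genes summed to 6758 CPM in shallow B cells of preSC_WT and 2938 CPM in those of CRPR2, a ratio of 2.30 (2.20 to 2.41). Of 24 genes, 16 were 1.5-fold higher and 0 lower, where 34% of all 9758 genes were 1.5-fold higher and 18.8% lower. Against RPR2 the sums were 6758 and 3377 CPM, a ratio of 2.00 (1.91 to 2.10), with 13 of 24 higher and 0 lower, where 37.4% of all 9357 genes were higher and 13.7% lower. The list's sum in T barcodes of preSC_WT was 1.31 times that of CRPR2 and 0.997 times that of RPR2. Blk had 765 CPM in preSC_WT, 58.5 CPM in CRPR2 and 78.8 CPM in RPR2, against 3.71, 7.27 and 3.80 CPM in T barcodes of the same libraries. T barcodes held too little Blk RNA to show whether its difference was shared by other cells. Prkcb, the kinase that links the receptor to NF-kappaB, had 600.1 CPM in preSC_WT, 105 CPM in CRPR2 and 119 CPM in RPR2. Lyn had 628, 122 and 122 CPM and Pik3ap1, the adaptor BCAP, 324, 49.7 and 66.9 CPM. Levels of Cd81, a tetraspanin of the coreceptor, were close at 167, 168 and 146 CPM.

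Lineage factors summed to 13146 CPM in preSC_WT and 6939 CPM in CRPR2, a ratio of 1.89 (1.84 to 1.96), with 14 of 23 genes 1.5-fold higher and 0 lower. Against RPR2, with 8524 CPM, the ratio was 1.54 (1.49 to 1.59), with 12 higher and 4 lower. Bach2 had 1347 CPM in preSC_WT, 77.2 CPM in CRPR2 and 113 CPM in RPR2, detected in 65.1%, 11.5% and 23.5% of shallow B cells. T barcodes also had more Bach2 in preSC_WT, with 195, 21.8 and 14.3 CPM. Pax5 had 517, 182 and 207 CPM, Ikzf3 (Aiolos) 554, 133 and 162 CPM, and Irf4, a factor of activation and plasma cell fate, 312, 61.2 and 66.9 CPM. Klf2 ran the other way with 1504, 1850.1 and 2359 CPM.

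Surface and presentation genes differed by gene. MHC class II sums were 1.34 times those of CRPR2 (1.32 to 1.37) and 1.36 times those of RPR2 (1.33 to 1.39). Costimulation sums were 2.35 times those of CRPR2 (2.17 to 2.54) and 1.89 times those of RPR2 (1.75 to 2.04). Cd83 had 1246 CPM in preSC_WT, 323 CPM in CRPR2 and 544 CPM in RPR2, and Cd274 had 245, 23.9 and 49.6 CPM. MHC class I sums were 1.45 times those of CRPR2 (1.39 to 1.52), with 11 of 15 genes 1.5-fold higher, but 0.944 times those of RPR2 (0.905 to 0.985), where the median log2 ratio was 0.45. Activation and immediate early sums were lower than in either lung tumour, at 0.808 (0.782 to 0.834) of CRPR2 and 0.791 (0.766 to 0.818) of RPR2. Over all B cells these ratios were 1.16 against CRPR2 and 1.24 against RPR2, so the direction depends on the deep members. The medians of the list over shallow B cells, at log2 0.03 and -0.10, were near 0.

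Plasma cell genes summed to 0.698 of CRPR2 (0.629 to 0.773) and 0.414 of RPR2 (0.375 to 0.457), and Jchain set these ratios, with 3.31 CPM in preSC_WT, 603 CPM in CRPR2 and 1168 CPM in RPR2. In the lung, 6 shallow B cells of CRPR2 and 8 of RPR2 held at least 5 Jchain UMIs. Without Jchain the list summed to 846 CPM in preSC_WT, 612 CPM in CRPR2 and 878 CPM in RPR2, a ratio of 1.38 (1.23 to 1.55) to CRPR2 and of 0.964 (0.861 to 1.08) to RPR2, so that the direction against CRPR2 turned. Heavy constant chains summed to 0.617 of CRPR2 (0.579 to 0.656) and 0.455 of RPR2 (0.428 to 0.484). Igha was part of it, with 9.92 CPM in shallow B cells of preSC_WT, 1377 CPM in CRPR2 and 1340.3 CPM in RPR2, whereas Ighm had 1478, 1519 and 1579 CPM. Scgb1a1, the secretoglobin of airway club cells, had 0 UMIs in B cells of preSC_WT, 3963 in shallow B cells of CRPR2 and 2134 in those of RPR2, and 31979.4 CPM in barcodes without immune RNA of CRPR2. Tumour markers summed to 548 CPM in shallow B cells of preSC_WT, 2044 CPM in CRPR2 and 539 CPM in RPR2, and 13.7%, 30.8% and 18.0% of shallow B cells carried one. All 6 measured markers were 1.5-fold lower than in CRPR2, and the ratio of sums was 0.268 (0.238 to 0.301), against 1.02 (0.882 to 1.17) for RPR2. Haemoglobin and other erythroid genes summed to 14.9, 1073 and 2.17 CPM in the same order. The part of this RNA in the differences between B cells of preSC_WT and of the lung was not tested. In the B1 list, which was 0.300 of CRPR2 (0.235 to 0.380) and 0.896 of RPR2 (0.672 to 1.19), S100a6, a calcium-binding protein of many cells, had 26.5, 242 and 11.9 CPM and Cd5 at most 1 UMI per library, so that the difference did not lie in its defining gene.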

How the data were processed

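Mouse tumours were minced, digested with enzymes, freed of red and dead cells and loaded on the 10x Chromium 3-prime system, per the labels' protocols. The deposited matrices hold raw UMI counts per gene and barcode, written by Cell Ranger 5.0.0 for the allografts and 6.1.2 for the lung tumours per the file headers, with mm10, Seurat and Scanpy named in the submitters' processing notes. Barcodes with at least 300 genes and up to 15% mitochondrial UMIs were kept and B cells picked by the 6 rule genes, with no doublets removed in the main values (Scrublet in scanpy 1.11.5 was an alternative). Counts were summed per library and class to CPM. Ratios carry exact conditional binomial intervals, shares exact Clopper-Pearson intervals, ratios of shares approximate intervals from the standard error of their log, and levels exact Poisson ones, all at 95%. A gene was called at 2-fold after adding 1 CPM, with at least 20 CPM and 10 UMIs in the higher library, and list genes were counted at 1.5-fold and 5 CPM. With 1 library per group no test was run. T barcodes and macrophage barcodes were picked by their own markers and lacked Cd79a. Barcodes without immune RNA lacked the 6 rule genes and Ptprc. The scripts were tested on simulated counts. Members and gene lists were chosen with earlier results of these data known. Genes named were list members with the highest level or beyond 2-fold, the most abundant genes and the 10 largest ratios each way. No column of the files was left unused for lack of a sample. A few list genes are counted in the sums but not reported here by name. Alternatives were other filters, scalings, rules, thinning and the removal of deep or tumour-marked members. The removal of deep, tumour-marked or Jchain-rich members, thinning to 500 UMIs, the plasma cell list without Jchain and centring in shallow members were chosen after seeing the data.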

Additional observations from a re-analysis of the deposited data

Results flagged for a closer look

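The share of B cells ran in opposite directions in the 2 pairs of libraries that differ by a Cracd label. It was 0.378% of kept barcodes in the library labelled preSC_CracdKO and 4.14% in preSC_WT, whereas it was 6.96% in CRPR2 and 4.60% in RPR2. The difference between the pairs was not tested, since each group was 1 library. The pairs also differ in tumour site and model.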

How the results depend on the processing

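No paired analysis was possible because each group was 1 library and the groups share only the replicate number 1. The B cell share of the library labelled preSC_CracdKO was 0.195% with a minimum of 500 genes, 0.149% with 2 UMIs asked of each part of the rule, 0.0823% after thinning barcodes to 1000 UMIs and 0.285% without members with a tumour marker. For preSC_WT the same settings gave 2.81%, 1.95%, 1.15% and 3.05%, and shallow members alone 3.45%. In all of these the share stayed lower in the library labelled preSC_CracdKO.

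In the allograft pair, 400 genes that were higher in preSC_CracdKO over all members became 1320 with no minimum CPM, 709 with ratios centred on their median, 148 under the 2-UMI rule, 124 without Scrublet doublets, 69 in shallow members and 64 without tumour-marked members. The 1202 lower genes became 538 at 50 CPM, 3862 with no minimum and 1853 under the 2-UMI rule. Centring made 43.5% of calls higher ones. For preSC_WT over CRPR2 the higher genes became 1296 at 50 CPM, 4879 with no minimum, 1168 centred, 1363 in shallow members and 1350 when members with 5 Jchain UMIs were also left out. The lower ones became 120, 1112, 636, 389 and 387, and 324 when scaled without immunoglobulin, haemoglobin and mitochondrial genes. For preSC_WT over RPR2 the higher genes became 1292 at 50 CPM, 5354 with no minimum, 1277 centred, 1350 in shallow members, 1648 without tumour-marked members and 1331 without Jchain members. The lower ones became 92 at 50 CPM, 628 with no minimum, 286 with the other scaling and 645 centred. Centring made 64.8% of calls higher ones against CRPR2 and 66.4% against RPR2, where 5 CPM added before the log gave 92.2% and 94.0%.

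In the library labelled preSC_CracdKO, Ighm or Ighd was found in 69.2% after thinning to 1000 UMIs, 57.4% after thinning to 500 and 60.7% when 2 UMIs were asked. Igkc gave 76.9%, 75.4% and 82.0% in these settings, lambda chains 34.4% after thinning to 500 and 31.1% at 2 UMIs, and switched chains 0% in shallow members. In preSC_WT, Ighm or Ighd gave 60.9%, 58.1% and 57.9%, Igkc 83.1% after thinning to 500, 81.6% after thinning to 1000 and 90.1% at 2 UMIs, and lambda chains 58.1%, 52.2% and 50.4%. Switched chains there gave 1.57% in shallow members, 1.31% at 2 UMIs and 1.05% after thinning to 500. The cause of these shifts, other than fewer UMIs, was not tested.

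Of 23 gene lists, the number with a median 1.5-fold above was 0 for the allograft pair over all members, 2 without Scrublet doublets and 1 in shallow members. For that pair more lists lay 1.5-fold below than above, both over all members and in shallow members. A list gene needed only 5 CPM on 1 side, less than 1 UMI in members labelled preSC_CracdKO, so one at 0 UMIs there entered a median as lower. In shallow members type I interferon genes had a median log2 ratio of -1.85 but a ratio of sums of 0.985, and cytokines -3.65 and 0.972. The part of depth in these medians was not tested. Activation and immediate early genes had a median log2 ratio of -3.11 over all members and -2.50 in shallow ones. MHC class I genes had -1.48 in both. For preSC_WT over CRPR2 the number above was 10, then 3 with the other scaling and 5 in shallow members, and 2 lists below became 1 without doublets and 1 in shallow members. For preSC_WT over RPR2 it was 2, then 1 with the other scaling and 5 without doublets, and 2 lists below became 6 and 1. The type I interferon median turned to 0.013 and the survival and apoptosis median to -0.043 against RPR2 in shallow members. The cause was not tested. Depth limits single genes: 1 UMI is 22.8 CPM in the 48 shallow members labelled preSC_CracdKO.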

Other observations

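H2-Eb1, the beta chain of the class II molecule I-E, set the RPR2 library apart from all 3 others. Shallow B cells held 2391 CPM of H2-Eb1 in the library labelled preSC_CracdKO, 3713 CPM in preSC_WT, 1966 CPM in CRPR2 and 203 CPM in RPR2, and it was detected in 83.3%, 94.5%, 87.9% and 38.2% of them. Macrophage barcodes held 558, 2500.3, 1205 and 13.6 CPM in the same libraries. The neighbouring class II genes H2-Aa and H2-Ab1 had 2768 and 2870.5 CPM in shallow B cells of RPR2, against 3791 and 3909.8 CPM in preSC_WT.

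Sex-linked genes also split the libraries. Xist, transcribed from the inactive X chromosome, had 866 UMIs in shallow B cells of RPR2 and 0 in the library labelled preSC_CracdKO, preSC_WT and CRPR2. Ddx3y, a Y-linked RNA helicase, had 1 UMI in the library labelled preSC_CracdKO, 61 in preSC_WT, 73 in CRPR2 and 0 in RPR2.

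In preSC_WT, shallow B cells with an Ighd UMI had Fcer2a in 92 of 300 and those without in 76 of 337, or 30.7% and 22.6%. Depth was not matched between the 2 sets of cells, and its part was not tested.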
